A study of Setaria viridis with 9 samples.

Results

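Leaf libraries with little NdhO transcript were compared with leaf libraries that held both NdhO and PGR5 transcript, across all genes. Of the 9 libraries of the series, 6 enter this comparison, and they were chosen by measured transcript level and not by genotype label. The NdhO-low libraries were the 3 with NdhO under 100 CPM, which carry the labels WT 1, pgr5 2 and pgr5 3. The libraries high in both were the 3 with NdhO and PGR5 each at 100 CPM or more, which carry the labels ndhO 2, ndhO 3 and pgr5 1. CPM is a count scaled to a library total of 1000000 counts. The remaining 3 libraries, labelled WT 2, WT 3 and ndhO 1, were low in PGR5 and served to estimate the spread and as a further level.

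Every library is polyadenylated RNA from whole leaf discs of Setaria viridis, a C4 grass, of the cultivar ME034V-1. The labels give 3 biological replicates each of WT, of a null NdhO line and of a null PGR5 line. All plants grew under 16 h of light and 8 h of dark at 380 µmol m-2 s-1, at 28 °C by day, 22 °C by night and 60% humidity, and were sampled at 3 to 4 weeks from the youngest fully expanded leaves. The labels put no further treatment on any group. Since the libraries were grouped by their own transcript levels and mix labels, a difference between the sets is a difference between these libraries. By the labels it is not a difference between WT and an edited line. No library of the NdhO-low set is labelled ndhO, and no library of the other set is labelled WT, so set and label cannot be told apart in full. The levels of NdhO and PGR5 went against several labels, and whether the sets match genotypes was not tested.

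The chloroplast NDH complex passes electrons from ferredoxin back to plastoquinone around photosystem I, a cyclic route that yields ATP without net NADPH. NdhO is one of its nuclear-encoded subunits. PGR5, with its membrane partner PGRL1, serves the other cyclic route. In C4 grasses of the NADP-malic enzyme type, the NDH complex is abundant in bundle sheath chloroplasts, where the C4 cycle delivers its CO2.

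In the NdhO-low libraries, in the order WT 1, pgr5 2 and pgr5 3 used throughout, NdhO reached 45.9, 21.2 and 48.5 CPM. In the libraries high in both, in the order ndhO 2, ndhO 3 and pgr5 1, NdhO reached 418, 426 and 419 CPM. The pooled level was 10.4-fold lower in the NdhO-low set, which the choice of libraries fixes and which was not tested. NdhO transcript was still detected in the low set, with 844, 262 and 829 counts. Nearest to the 100 CPM limit were the library labelled pgr5 3 at 48.5 CPM on the low side and that labelled WT 3 at 242 CPM on the high side, so limits of 50 and of 200 CPM gave the same sets. These levels went against the labels: a library labelled WT was low in NdhO, and libraries labelled ndhO were not. PGR5, the other gene of the rule, stood at 389, 259 and 389 CPM in the NdhO-low libraries and at 299, 323 and 285 CPM in those high in both, and these ranges overlapped.

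**Figure D1:**
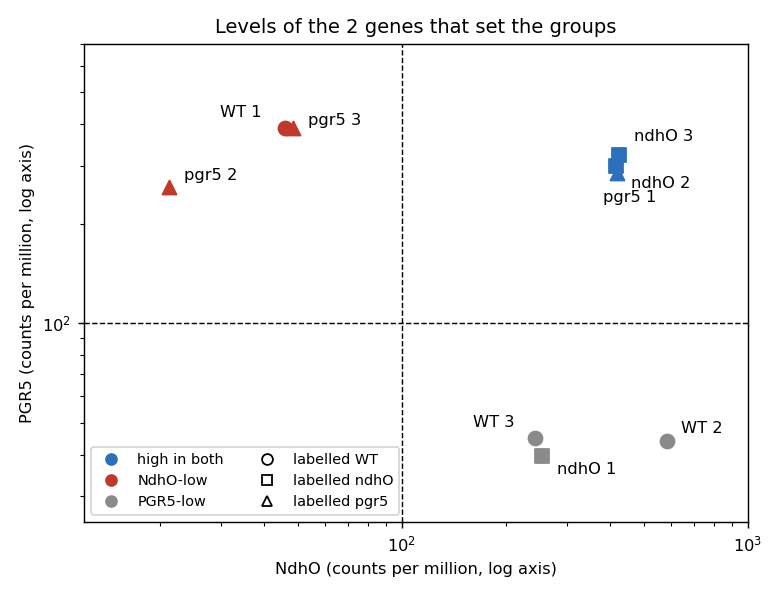
NdhO against PGR5 in each of the 9 libraries, both in CPM on log axes; colour gives the set, symbol the label, and dashed lines the 100 CPM limit. The 3 NdhO-low libraries lie between 21.2 and 48.5 CPM of NdhO and carry 2 different labels, and the libraries high in both lie between 418 and 426 CPM.

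Library totals ran from 11606570 to 18837265 counts. Spearman correlations across genes ran from 0.940 to 0.977 within a set and from 0.945 to 0.959 between the sets, so the libraries of a set were not uniformly closer to each other than to the other set. Of the enzymes that define C4 leaf tissue, pyruvate, phosphate dikinase 2 (LOC117850669) of the mesophyll was at 31190 to 43960 CPM and the chloroplast NADP-dependent malic enzyme (LOC117857444) of the bundle sheath at 9739 to 13910 CPM in the 6 libraries. The NdhO-low libraries differed among themselves in gene groups of photosynthesis and protein synthesis, as described below for the libraries labelled pgr5 2 and pgr5 3. In bulk leaf RNA, fewer cells of a type and less RNA per cell cannot be told apart.

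Of 17968 genes tested, 43 were higher in the NdhO-low libraries (0.239% of genes) and 26 were lower (0.145%), at an adjusted p under 0.05 in edgeR's quasi-likelihood test. In the same fit 1651 genes had an unadjusted p under 0.05. Of the 43 higher genes, 19 had at most 3 counts over the libraries high in both, and 24 had more. Of the 26 lower genes, 2 had 0 counts in the NdhO-low libraries, and 20 had a log2 fold change below -1. The values of the sets did not overlap in any of the 69 called genes, and did not overlap in 17.9% of all genes tested. With library totals in place of TMM scaling the split was 52 higher and 19 lower, against 43 and 26.

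The number of calls depended on the model and on single libraries. With the genotype label as a term, 10 genes stayed higher and 2 lower, all of them among the 69, and 57 calls were lost, while the log2 fold changes of the 69 genes moved by a median of 0.10 and at most 0.75. Their standard errors were a median of 1.25 times as large with that term. Leaving out the library labelled pgr5 2 raised the calls to 72 higher and 48 lower, and leaving out WT 1, ndhO 2, ndhO 3, pgr5 1 or pgr5 3 gave 24, 26, 29, 31 or 35 higher and 9, 6, 6, 6 or 12 lower. These fits without a compared library kept 30 to 54 of the 69 calls. The fits without WT 2, WT 3 or ndhO 1 drop no compared library and kept 61, 57 and 54. Tallies below over the 9 fits without 1 library include both kinds.

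**Figure D2:**
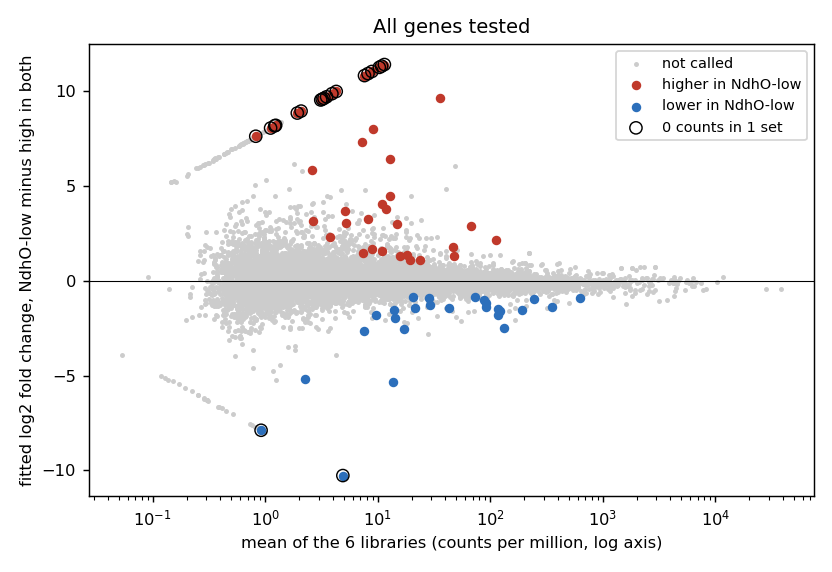
Fitted log2 fold change (NdhO-low minus high in both) against the mean CPM of the 6 libraries on a log axis, 1 point a gene, with called genes in colour. The 43 higher genes reach far larger fitted values than most of the 26 lower ones; circled genes had 0 counts in 1 set, and their fitted value depends on the prior count and is no measure of size.

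Of the 43 higher genes, 18 had 0 counts in all 3 libraries high in both and 1 had 3 counts in total. Of the 18, 9 also had 0 counts in every PGR5-low library and 9 had counts in every PGR5-low library. Uncharacterized genes made up 24 of the 43 higher genes (55.8%), against 2 of the 26 lower genes (7.69%) and 22.2% of all genes tested. Folds against a set at 0 are given below as lower bounds, computed against 3 counts over the pooled totals of that set, which equals 0.0586 CPM in the libraries high in both and 0.0627 CPM in the NdhO-low libraries and covers counting error only.

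LOC117839043, an uncharacterized gene, had 18.1, 29.8 and 20.8 CPM in the NdhO-low libraries and 0 counts in the libraries high in both. Its level was at least 378-fold higher in the NdhO-low set (adjusted p = 2.38e-05 in edgeR). LOC117846119, also uncharacterized, had 16.1, 16.7 and 16.4 CPM against 0, at least 280-fold higher (adjusted p = 1.35e-05 in edgeR). Both genes were present at like levels in the PGR5-low libraries, at 16.8 to 22.6 CPM and 13.6 to 16.8 CPM. These transcripts were detected in the other 6 libraries and not in those high in both. LOC117835924 followed the same order, with 8.58, 6.32 and 8.60 CPM in the NdhO-low libraries, 11.4 to 13.9 CPM in the PGR5-low libraries and 0 counts in those high in both.

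The gene with the lowest p of the comparison encodes cysteine-rich receptor-like protein kinase 28 (LOC117833376), a member of a family of plasma membrane kinases. It stood at 72.5, 71.8 and 72.1 CPM in the NdhO-low libraries (mean 72.1 ± 0.388, SD, n = 3) and at 0.2201, 0 and 0 CPM in those high in both, the first value resting on 4 counts. The log2 fold change was 9.63 ± 0.44 (SE), with an adjusted p of 5.81e-06 in edgeR. In the PGR5-low libraries it stood at 55.7 to 57.2 CPM. Its log2 difference between the NdhO-low and the PGR5-low libraries was 0.34 ± 0.24 (SE), with an adjusted p of 0.701 in edgeR.

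A second class was detected in the NdhO-low libraries alone. With 0 counts elsewhere, genes of this class passed the low-count filter only through the libraries where they were high. Their adjusted p and folds describe that detection and are no separate support for it. The share of all genes with this pattern was not counted. LOC117862125 had 18.7, 30.3 and 16.0 CPM there and 0 counts in the other 6 libraries, at least 354-fold above the libraries high in both (adjusted p = 0.00146 in edgeR). LOC117850811 had 21.0, 25.6 and 15.4 CPM, at least 345-fold above them (adjusted p = 0.00111), and LOC117834788 had 17.9, 18.9 and 16.5 CPM, at least 302-fold above them (adjusted p = 0.000732). All 3 are uncharacterized, and each had 0 counts in every library outside the NdhO-low set. The others of this class were LOC117862925 at 13.5 to 18.1 CPM, LOC117838735 at 7.26 to 9.41 CPM, LOC117840099 at 6.50 to 7.93 CPM, LOC117839809 at 5.21 to 7.70 CPM, LOC117861119 at 5.05 to 7.38 CPM and LOC117853313 at 3.42 to 7.67 CPM in the NdhO-low libraries. With the genotype label as a term, LOC117834788 had an adjusted p of 0.0738, and none of these 9 genes passed.

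Between the NdhO-low and the PGR5-low libraries, 15 genes were higher in the NdhO-low set and 17 lower, 0.178% of the genes tested in both directions together. That comparison shares the 3 NdhO-low libraries with the one above.

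Genes that resemble mobile elements and immune receptors were among the transcripts at or near 0 in the libraries high in both. A RICESLEEPER 2-like gene (LOC117856016), of a family derived from hAT transposases, had 4.24, 4.70 and 3.57 CPM in the NdhO-low libraries and 0 counts in those high in both, at least 70.3-fold higher (adjusted p = 0.000342 in edgeR). LOC117838134, uncharacterized, had 2.45 to 4.92 CPM and was at least 64.6-fold higher. The genes in the rest of this paragraph, other than LOC117839376, were chosen after their values were seen. Another RICESLEEPER 2-like gene (LOC117849280) had 1.20 to 2.05 CPM and a FAR1-RELATED SEQUENCE 5-like gene (LOC117835224) had 1.64 to 2.84 CPM, each against 0 counts. The call on LOC117849280 was lost in each of the 9 fits without 1 library. That call and those on LOC117838134 and LOC117835224 were lost with the genotype label as a term. LOC117836244, uncharacterized, had 16.6 to 19.5 CPM against 3 counts in all in the libraries high in both, a ratio of 311 with a 95% exact counting interval from 106 to 1510.

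The defence list, which holds disease resistance and pathogenesis-related genes, had 3 of 306 tested genes higher and 1 lower, 1.31% of the list against 0.384% of all genes tested. Its median log2 fold change was 0.22 against 0.02 over all genes, and 0.11 without the library labelled WT 1. Its lowest p belonged to the putative disease resistance protein At1g50180 (LOC117839376), of the family of intracellular immune receptors. It stood at 17.9, 16.7 and 8.37 CPM in the NdhO-low libraries and at 0, 0 and 0.212 CPM in those high in both, with a log2 fold change of 7.31 ± 0.74 (SE, adjusted p = 0.00159 in edgeR). The PGR5-low libraries held it at 6.16 to 16.2 CPM, which overlaps the NdhO-low libraries. The other members that were higher, an RGA2-like gene (LOC117866978) and an RGA3 gene (LOC117834648), both chosen after their values were seen, stood at 1.58 to 3.10 CPM and 1.47 to 2.84 CPM against 0 counts. A different RGA3 gene (LOC117849041) was lower, at 9.02, 12.8 and 14.98 CPM against 23.4, 33.9 and 35.1 CPM, with a log2 fold change of -1.41 ± 0.25 (SE, adjusted p = 0.0459 in edgeR). Where the counting split reads between near-identical copies, the values of such family members are uncertain. All of these defence calls were lost with the genotype label as a term, and limma-voom made none of them. Of the 9 fits without 1 library, the call on LOC117839376 held in 9 and that on LOC117866978 in 5. The call on LOC117834648 held in 4 and that on LOC117849041 in 2.

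Among the higher genes with clear levels in both sets, several encode signalling and RNA-silencing proteins. Calcineurin B-like protein 7, RNA-dependent RNA polymerase 3 and a GNOM-like factor were chosen after their values were seen, as genes with a description that were called in each of the 21 alternative fits. Calcineurin B-like protein 7 (LOC117854380), a calcium sensor of the family that binds and activates CIPK kinases, stood at 203, 172 and 187 CPM in the NdhO-low libraries and at 42.7, 39.8 and 37.7 CPM in those high in both. Its log2 fold change was 2.14 ± 0.18 (SE, adjusted p = 0.000342 in edgeR), and 2.10 ± 0.24 with the genotype label as a term (adjusted p = 0.0303). In the PGR5-low libraries it stood in between, at 66.7 to 90.8 CPM, without overlap with either set.

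A probable RNA-dependent RNA polymerase 3 (LOC117857235), of the enzymes that copy RNA into double strands, stood at 124, 127 and 111 CPM in the NdhO-low libraries and at 15.5, 14.3 and 15.02 CPM in those high in both. Its log2 fold change was 2.92 ± 0.16 (SE, adjusted p = 1.35e-05 in edgeR). The PGR5-low libraries held 97.6 to 141 CPM, which overlaps the NdhO-low libraries. Its neighbour with the same description, LOC117857234, chosen after its values were seen, stood at 5.79 to 7.06 CPM against 0.903 to 1.43 CPM. The call on LOC117857234 was lost with the genotype label as a term. Reads shared by this pair may have been split by the counting.

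A GNOM-like ARF guanine-nucleotide exchange factor (LOC117852668), of the proteins that start vesicle budding, stood at 23.5, 29.4 and 26.6 CPM in the NdhO-low libraries and at 1.93, 3.52 and 3.93 CPM in those high in both. The log2 fold change was 3.00 ± 0.26 (SE, adjusted p = 0.000415 in edgeR). In the PGR5-low libraries it stood at 17.0 to 23.6 CPM.

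**Figure D3:**
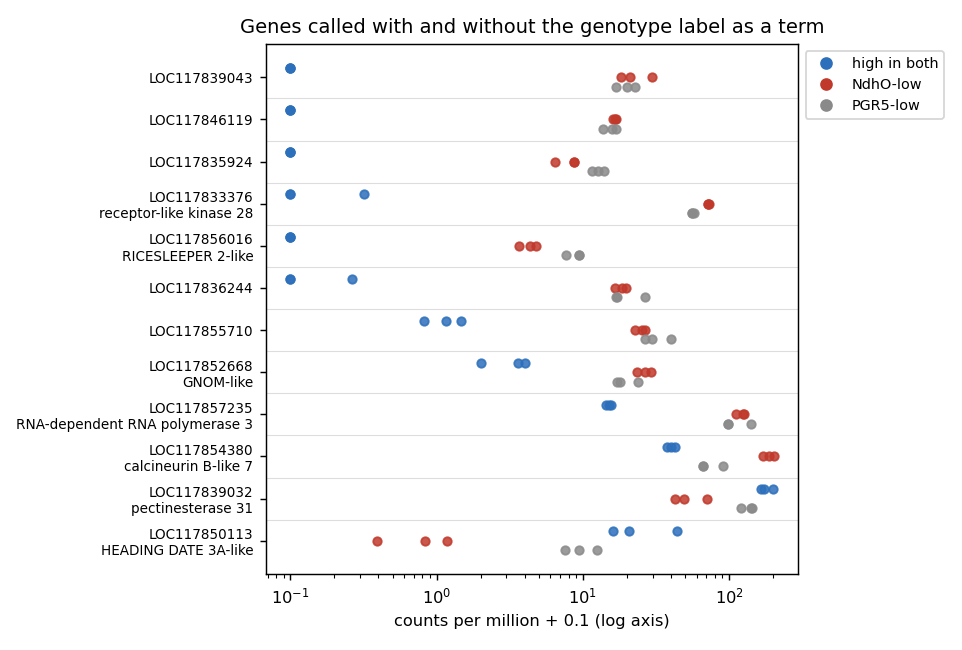
CPM plus 0.1 on a log axis in every library for the 12 genes called both with and without the genotype label as a term, 3 points a set, coloured by set. In 10 genes the NdhO-low libraries lie above the libraries high in both and in 2 below; for LOC117839043 the PGR5-low libraries lie at 16.8 to 22.6 CPM, next to the NdhO-low libraries, while for HEADING DATE 3A-like LOC117850113 they lie between the sets.

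Other higher genes serve metabolism, and those named here were chosen after their values were seen. A probable inositol oxygenase (LOC117854081), which turns inositol into glucuronate, stood at 38.1, 9.41 and 19.1 CPM in the NdhO-low libraries and at 2.15, 1.41 and 0.956 CPM in those high in both. The amido synthetase GH3.11 (LOC117846263), of the enzymes that join amino acids to plant hormones, stood at 9.34, 12 and 6.91 CPM against 0.881, 1.48 and 0.849 CPM. Both were called in edgeR, with adjusted p of 0.0432 and 0.0412, and both calls were lost with the genotype label as a term. Threonine dehydratase 1 (LOC117840735), the first enzyme of isoleucine synthesis, stood at 23.8 to 31.8 CPM against 10.9 to 13.4 CPM, and ureide permease 1-like (LOC117847374), a transporter of nitrogen-rich ureides, at 14.0 to 21.4 CPM against 3.80 to 7.27 CPM. The calls on these last 2 genes were also lost with the genotype label as a term. Each call of this paragraph held in only 2 or 3 of the 9 fits without 1 library.

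The lower genes were led by a pair of HEADING DATE 3A-like genes. Their rice namesake is a florigen, a mobile signal made in leaves that promotes flowering at the shoot tip. LOC117850113 had 1.09, 0.730 and 0.293 CPM in the NdhO-low libraries and 20.5, 16.1 and 44.3 CPM in those high in both. The sets did not overlap, and the log2 fold change was -5.31 ± 0.51 (SE, adjusted p = 0.00125 in edgeR). The gene stayed called with the genotype label as a term, at -5.86 ± 0.46 (SE, adjusted p = 0.00285), and without each library in turn, but not by limma-voom. The PGR5-low libraries lay between the sets, at 7.42 to 12.3 CPM, and their difference from the NdhO-low libraries had an adjusted p of 0.0201 in edgeR. LOC117855226 had 0 counts in all 3 NdhO-low libraries and 7.70, 3.24 and 18.5 CPM in those high in both, at least 166-fold lower (adjusted p = 0.0405 in edgeR). That second call was lost with the genotype label as a term and in 6 of the 9 fits without 1 library. If the authors' counting split reads between these copies, the value of each alone is uncertain.

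Pectinesterase 31 (LOC117839032), which removes methyl groups from wall pectin, stood at 42.9, 70.7 and 49.0 CPM in the NdhO-low libraries and at 174, 167 and 200 CPM in those high in both. Its log2 fold change was -1.82 ± 0.19 (SE, adjusted p = 0.00146 in edgeR), and it was the 1 lower gene called in each of the 21 alternative fits. Ervatamin-B-like (LOC117866690), named for a papain-type cysteine protease, stood at 6.90, 6 and 3.28 CPM against 24.8, 28.4 and 33.8 CPM (log2 fold change -2.52 ± 0.26, SE, adjusted p = 0.00146 in edgeR). Ervatamin-B-like stayed called without each library in turn but not with the genotype label as a term. BURP domain-containing protein 3-like (LOC117856889) stood at 44.2 to 83.5 CPM against 174 to 189 CPM. Its call was lost with the genotype label as a term and held in 4 of the 9 fits without 1 library.

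Phosphoenolpyruvate carboxylase 2 (LOC117843888), an isozyme of the enzyme that fixes bicarbonate first in C4 leaves, stood at 56.2, 70.7 and 51.0 CPM in the NdhO-low libraries and at 104, 125 and 148 CPM in those high in both, a log2 fold change of -1.17 ± 0.16 (SE, adjusted p = 0.0104 in edgeR). The housekeeping isozyme (LOC117858341) stood at 2.77, 2.76 and 1.17 CPM against 13.3, 13.4 and 11.9 CPM, a log2 fold change of -2.63 ± 0.41 (SE, adjusted p = 0.0236 in edgeR). Both calls were lost with the genotype label as a term. Of the 9 fits without 1 library, the call on phosphoenolpyruvate carboxylase 2 held in 7 and that on the housekeeping isozyme in 4. The housekeeping isozyme was not called by limma-voom. These were the 2 genes of the C4 cycle list that passed, both lower, out of 31 tested. That is 6.45% of the list, while 0.384% of all genes tested were called in either direction. Both are phosphoenolpyruvate carboxylase isozymes at levels far below that of pyruvate, phosphate dikinase 2, the most abundant gene of the list. None of 25 Calvin-Benson cycle genes and none of 68 starch and sucrose genes passed, which at 0.384% of all genes called says little of these lists. An unadjusted p under 0.05 in edgeR was found for 16.2% of the starch and sucrose genes, against 9.19% of all genes tested. The C4 list's median was -0.27, with 22 of its 31 genes below 0, against 47.5% below 0 among all genes tested. That median was -0.13 without the library labelled pgr5 2 and -0.17 without ndhO 2. Pyruvate, phosphate dikinase 2 (LOC117850669) stood at 35180, 37290 and 31190 CPM against 41740, 43640 and 43960 CPM and did not pass (log2 fold change -0.41 ± 0.21, SE, adjusted p = 0.599 in edgeR).

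Alcohol dehydrogenase 2 (LOC117834143), a fermentation enzyme, stood at 6.68, 8.11 and 4.04 CPM against 24.1, 21.6 and 21.6 CPM (log2 fold change -1.93 ± 0.25, SE, adjusted p = 0.00928 in edgeR). Indole-2-monooxygenase-like (LOC117859916), whose maize namesake acts in benzoxazinoid synthesis, stood at 37.4, 58.5 and 34.1 CPM against 225, 247 and 197 CPM (log2 fold change -2.46 ± 0.34, SE, adjusted p = 0.0202 in edgeR). The sets did not overlap in either gene. Enolase 1 (LOC117852367), of glycolysis, calmodulin-3 (LOC117855088), a calcium sensor, and a trehalose-phosphate synthase 1-like gene (LOC117848559) were chosen after their values were seen. They stood at 156 to 244, 15.04 to 20.1 and 47.0 to 61.4 CPM in the NdhO-low libraries and at 466 to 528, 38.4 to 45.4 and 99.2 to 147 CPM in those high in both. A gene described as SRG1-like (LOC117864467), also chosen after its values were seen, had 0 counts in the NdhO-low libraries and 2.201, 1.83 and 1.49 CPM in those high in both, at least 29.3-fold lower (adjusted p = 0.0405 in edgeR). All calls of this paragraph were lost with the genotype label as a term. Of the 9 fits without 1 library, the call on alcohol dehydrogenase 2 held in 8 and that on indole-2-monooxygenase-like in 5. The call on enolase 1 held in 2, on calmodulin-3 in 4, on trehalose-phosphate synthase 1-like in 5 and on SRG1-like in 2.

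The remaining lower genes under the naming rule serve varied or unknown roles. The log2 fold change was -1.79 for cytosolic sulfotransferase 3-like (LOC117863052), -1.54 for the uncharacterized LOC117842588 and -1.51 for NDR1/HIN1-like protein 1 (LOC117862208). It was -1.47 for keratin, type I cytoskeletal 9-like (LOC117859073) and -1.44 for a Lea14-A-like late embryogenesis abundant protein (LOC117846840). The adjusted p of these 5 genes ran from 0.0302 to 0.0382 in edgeR, and the sets overlapped in none of them, as in all 69 called genes. Of the 9 fits without 1 library, these calls held in 3, 4, 1, 2 and 3, in the order named. LOC117849501, uncharacterized, stood at 0.326, 0 and 0 CPM against 2.92, 4.15 and 6.11 CPM, and its call held in 7 of the 9 fits. All of these calls were lost with the genotype label as a term.

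No gene of the NDH complex list passed the test, from which NdhO itself was left out. The list holds 16 tested genes, for subunits L, M, S, T and U, lumenal subunits 1 to 5 and subcomplex B subunits 1 to 5. Other subunits of the complex are not in it. Of the 16, 0 were called in either direction, where 0.384% of all genes were called. That count alone says nothing particular of these genes. Their log2 fold changes ran from -0.44 to 0.16 with SE from 0.16 to 0.52, and the median was -0.06 against 0.02 over all genes. That median was 0.16 without the library labelled pgr5 2 and -0.19 without pgr5 3. Values did not overlap between the sets in 1 of the 16, against 17.9% of all genes tested. Subunit L (LOC117842009), a membrane subunit, stood at 669, 231 and 763 CPM in the NdhO-low libraries and at 424, 542 and 512 CPM in those high in both. Subunit M (LOC117864460), like NdhO a stromal subunit, stood at 534, 422 and 507 CPM against 539, 459 and 535 CPM, a log2 fold change of -0.15 ± 0.16 (SE, adjusted p = 0.867 in edgeR). Subunit S (LOC117835902), which helps form the ferredoxin binding site, stood at 199, 111 and 207 CPM against 141, 185 and 176 CPM. In these genes the library labelled pgr5 2 was the low one of its set. The summed level of the 16 genes was 6373, 4144 and 6721 CPM in the NdhO-low libraries and 5191, 5555 and 5821 CPM in those high in both.

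Subunit T (LOC117833231), which carries a J-domain at the stromal edge, stood at 317, 327 and 231 CPM against 294, 285 and 356 CPM, and subunit U (LOC117848688) at 710, 340 and 650 CPM against 418, 493 and 561 CPM. Of the photosynthetic NDH subunits of subcomplex B, the 1 gene whose values did not overlap, subunit B 3 (LOC117846384), stood at 309, 260 and 268 CPM against 259, 242 and 247 CPM and did not pass (adjusted p = 0.943 in edgeR). The lowest fold change of the list belonged to lumenal subunit 2 (LOC117849455), at 83.2, 43.1 and 97.8 CPM against 89.8, 103 and 94.0 CPM (-0.44 ± 0.48, SE). The widest standard error belonged to subunit B 2 (LOC117838176), at 267, 144 and 354 CPM against 210, 216 and 221 CPM (0.16 ± 0.52, SE).

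Factors that assemble the NDH complex and the PGRL1 genes also did not pass. None of 5 assembly genes was called, which at 0.384% of all genes called says little of so few genes. Their median was 0.08, or 0.35 without the library labelled pgr5 2 and 0.03 without pgr5 3. CRR1 (LOC117840609), a reductase-like factor of stromal subcomplex assembly, had the largest value, at 7.77, 2.19 and 19.9 CPM in the NdhO-low libraries and 4.18, 3.10 and 3.34 CPM in those high in both (1.42 ± 0.73, SE, adjusted p = 0.619 in edgeR), with the library labelled pgr5 2 below and that labelled pgr5 3 far above. CRR7 (LOC117857645) stood at 80.1, 83.02 and 60.4 CPM against 91.0, 83.3 and 83.03 CPM (-0.29 ± 0.16, SE, adjusted p = 0.631). The PGRL1 genes, which anchor PGR5 at the thylakoid, were 3 in number and 0 were called, a count that says as little. PGR5-like protein 1A (LOC117840897) stood at 1793, 1880 and 2062 CPM against 1828, 1612 and 1797 CPM, and PGR5-like protein 1B (LOC117845758) at 1539, 1482 and 1538 CPM against 1331, 1394 and 1276 CPM, with log2 fold changes of 0.05 ± 0.19 and 0.10 ± 0.16 (SE). A p that misses the threshold does not show that these levels were alike.

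**Figure D4:**
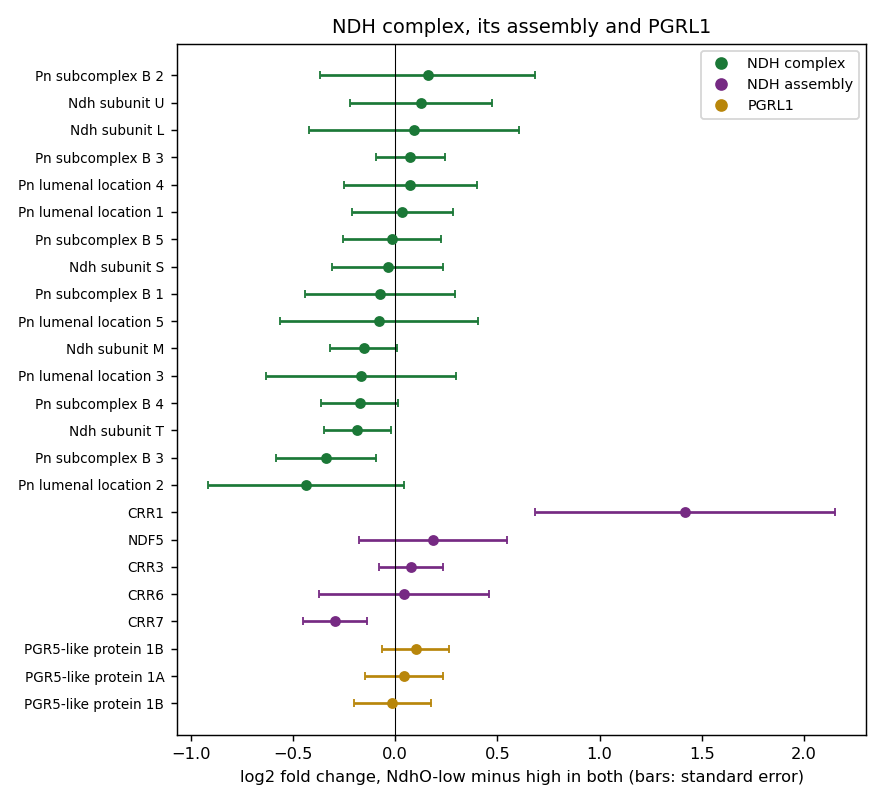
Log2 fold change (NdhO-low minus high in both, bars give the standard error) of the 16 NDH complex genes, 5 assembly genes and 3 PGRL1 genes; "Pn" stands for photosynthetic NDH subunit. All 16 NDH complex genes lie between -0.44 and 0.16, and CRR1 lies apart at 1.42 with a standard error of 0.73.

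Photosystem and antenna genes held no call, which at 0.384% of all genes called says little of so few genes. None of 10 photosystem I, 19 photosystem II, 12 antenna and 13 cytochrome b6f, carrier and ATP synthase genes passed, with medians of 0.08, -0.09, -0.002 and -0.08. Without the library labelled pgr5 2 the photosystem II median was 0.11 and the antenna median 0.16. Photosystem I subunit XI (LOC117848636) stood at 5434, 4187 and 4710 CPM in the NdhO-low libraries and at 4512, 4995 and 4172 CPM in those high in both. The leaf ferredoxin--NADP reductase (LOC117859992), which ends linear electron flow, stood at 3951, 4224 and 4017 CPM against 4977, 5043 and 4886 CPM and did not pass (-0.38 ± 0.16, SE, adjusted p = 0.515 in edgeR).

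Of the 33 lists, 7 held a called gene and 26 held none. Beside defence, the C4 cycle and the mesophyll markers that share phosphoenolpyruvate carboxylase 2 with it, each of the other 4 held 1. In the jasmonate list TIFY 10b-like (LOC117845399), of the JAZ repressors of jasmonate signalling, stood at 77.1, 48.5 and 82.9 CPM against 29.0, 25.3 and 24.3 CPM (1.32 ± 0.22, SE, adjusted p = 0.0382 in edgeR). The TIFY 10b-like call was lost with the genotype label as a term and held in 3 of the 9 fits without 1 library. That list had 9 genes higher and 2 lower of 30 at an unadjusted p under 0.05, which 9.19% of all genes tested had. Its median was 0.42, or 0.22 without the library labelled WT 1, 0.66 without pgr5 2 and 0.21 with the genotype label as a term, with the libraries labelled WT 1 and pgr5 3 at 0.49 and 0.61 above the gene means and that labelled pgr5 2 at -0.17. Its most abundant gene, lipoxygenase 2.3 (LOC117844140), which starts jasmonate synthesis, lay the other way, at 2046, 2569 and 1987 CPM against 3115, 2960 and 2846 CPM, and did not pass (adjusted p = 0.361 in edgeR).

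In the mitochondrial respiration list, cytochrome b-c1 complex subunit 7-2 (LOC117843815), of respiratory complex III, stood at 18.2, 14.6 and 13.4 CPM against 26.4, 24.3 and 27.9 CPM (-0.85 ± 0.15, SE, adjusted p = 0.0459 in edgeR). This call was lost in each of the 9 fits without 1 library. The median of the 58 genes was -0.21, or -0.13 without the library labelled pgr5 2, and 84.5% lay below 0, against 47.5% of all genes tested. In the chlorophyll synthesis list the gene called, uroporphyrinogen-III C-methyltransferase (LOC117856627), serves siroheme and not chlorophyll, and stood at 13.7, 9.57 and 9.83 CPM against 4.24, 3.59 and 3.50 CPM (1.46 ± 0.26, SE, adjusted p = 0.0452 in edgeR). This methyltransferase call was lost with the genotype label as a term and held in 1 of the 9 fits without 1 library. That list's median over 29 genes was 0.15, and -0.14 without the library labelled pgr5 3. The abscisic acid and dehydration list held the Lea14-A-like gene and had a median of 0.02 over 88 genes.

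Cytosolic ribosomal protein genes had a median of 0.38 over 180 genes with none called, and their median deviation was 0.95 in the library labelled pgr5 3 but 0.07 and -0.11 in those labelled WT 1 and pgr5 2. Genes of lignifying vascular tissue had a median of 0.31 over 19 genes, and ran from -0.996 in pgr5 2 to 1.44 in pgr5 3, against -0.02 to 0.35 in the libraries high in both. Without the library labelled pgr5 3 the ribosomal median was -0.02 and the lignifying one -0.45, and the lignifying one was -0.25 with the genotype label as a term. For epidermis and cuticle the median was -0.26 over 91 genes, with NdhO-low libraries from -0.15 to -0.02 and the others from 0.13 to 0.28, and that median was -0.13 without the library labelled ndhO 3. Dividing-cell genes had a median of -0.02 over 32. None of these 3 cell type lists had a called gene, where 0.384% of all genes tested were called. Their part in the calls above was not tested.

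Markers of the 2 photosynthetic cell types of the C4 leaf had medians on opposite sides of 0. The summed level of 7 mesophyll marker genes was 66070, 60560 and 60860 CPM in the NdhO-low libraries and 76770, 81960 and 76870 CPM in those high in both, without overlap, and their median log2 fold change was -0.41 with 1 gene called. Of the 7 mesophyll genes, 5 lay below 0 and 2 above. Pyruvate, phosphate dikinase 2 makes up most of this mesophyll sum and did not pass. The gene called was phosphoenolpyruvate carboxylase 2, at 51.0 to 148 CPM over both sets. Among single genes, values did not overlap in 17.9% of all genes tested. The summed level of 9 bundle sheath marker genes was 23070, 19210 and 22740 CPM against 16430, 16500 and 19000 CPM, also without overlap. The median deviation from the gene means, in which each gene counts alike, ran from -0.21 in pgr5 2 to 0.33 in WT 1 among the NdhO-low libraries and overlapped that of the libraries high in both, at 0.05 to 0.09. The list's median log2 fold change was 0.23 with 3 of 9 genes below 0 and 0 called, 0.10 without the library labelled pgr5 3 and 0.12 with the genotype label as a term. NADP-dependent malic enzyme (LOC117857444), which makes up most of that sum, stood at 13910, 12890 and 12410 CPM against 10100, 9739 and 11620 CPM and did not pass. The lowest p of the bundle sheath list belonged to a rubisco small chain A gene (LOC117846999), which lay the other way. It stood at 247.7, 209.8 and 177.5 CPM against 233.7, 300.4 and 235.3 CPM and did not pass (-0.37 ± 0.16, SE, adjusted p = 0.525 in edgeR). The part of these levels in the calls on the phosphoenolpyruvate carboxylase genes was not tested.

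**Figure D5:**
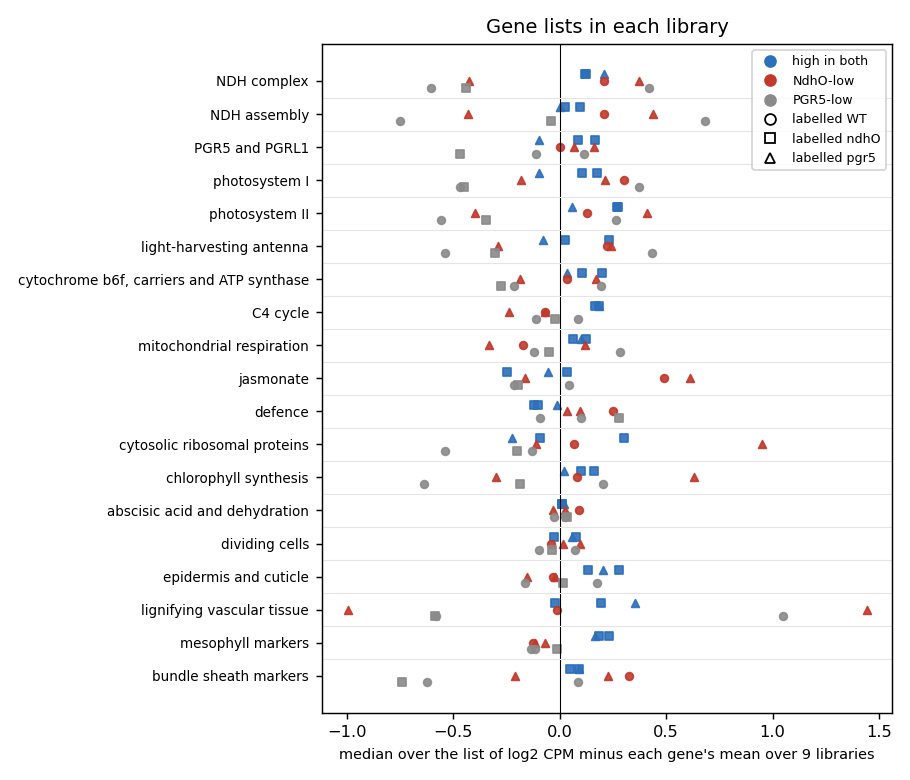
Median over each list of log2 CPM minus each gene's mean over the 9 libraries, 1 point a library, coloured by set and shaped by label. For the C4 cycle the NdhO-low libraries lie from -0.24 to -0.07 and those high in both from 0.16 to 0.18, while for cytosolic ribosomal proteins the library labelled pgr5 3 lies alone at 0.95.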

How the data were processed

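The authors deposited 1 table of 17987 genes with raw counts for every library, per the file headers; the 9 count columns were used without change and 9 other per-sample columns were not used. The submitters' processing notes list limma 3.62.2, edgeR 4.4.1, StringTie 2.2.3, Trim Galore 0.6.7 and FastQC 0.11.9. No source used here names the aligner or the build, so neither is given. Columns of ndhO and pgr5 took their sample from the group name and the last number.

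Here the sets were formed at 100 CPM of library totals. One fit over all 9 libraries in 3 sets used R 4.3.3 and edgeR 4.0.16 (TMM, default low-count filter, robust quasi-likelihood F test, Benjamini-Hochberg over 17968 genes, threshold 0.05). NdhO and PGR5 were left out of the tests. Standard errors come from the F statistic. The common biological coefficient of variation was 0.337. An exact permutation of 3 against 3 cannot go below 0.1, so none was used. Replicates are biological per the labels.

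The libraries, lists and rule for named genes were chosen with earlier results of these data known, and some list words were corrected with the table in view. Named were NdhO, PGR5, the 15 highest and 15 lowest fold changes among calls with a mean of at least 1 CPM, all NDH and PGRL1 genes, and each list's lowest p and most abundant gene, as far as they bear on a result; the text marks others as chosen afterwards. RefSeq identifiers of Setaria_viridis_v4.0 matched 17558 genes and served for symbols and gene order. Alternatives were DESeq2 1.42.0, limma-voom (limma 3.58.1), other scalings, filters, thresholds and CPM limits, the 6 libraries alone, the label as a term, leaving out each library and a replicate block.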

Additional observations from a re-analysis of the deposited data

How the results depend on the processing

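All 69 called genes kept their direction in each of the 21 alternatives. Since they were picked from these same libraries and their sets did not overlap, that outcome was largely fixed beforehand. Of the 69, 7 stayed called in all alternatives. The limits of 50 and 200 CPM gave the same sets and are no separate checks. Without each library in turn the calls ran from 24 to 72 higher and from 6 to 48 lower; 23 genes stayed called in all 9 of these fits, and 12 of those also with the genotype label as a term. DESeq2 called 191 higher and 159 lower, limma-voom 18 and 19, the label term 10 and 2, and a threshold of 0.01 gave 22 and 4. The replicate block gave 19 and 9 calls, with 27 of the 69 genes called. Same-numbered libraries of the sets correlated in their deviations at 0.21, 0.03 and -0.01. Such values over all genes cannot decide whether libraries of 1 number share an effect on some genes, which was not tested. Fitting only the 6 libraries gave 43 and 21, with 45 of the 69 genes called. Library totals moved the median of all genes to 0.11 and gave list medians of -0.18 for the C4 cycle, 0.10 for abscisic acid, 0.067 for dividing cells, -0.17 for epidermis and -0.32 for mesophyll markers; relative to that shift the dividing-cell genes lie below 0. The replicate block gave -0.028 for abscisic acid. Without 1 library, medians ran from -0.35 to -0.13 for the C4 cycle, 0.11 to 0.29 for defence, -0.065 to 0.022 for abscisic acid, -0.30 to -0.13 for epidermis, -0.43 to -0.29 for mesophyll markers and -0.19 to 0.090 for cytochrome b6f, carriers and ATP synthase. The cause of these shifts was not tested. Depth limits the genes at 0 counts, for which only bounds are given.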

Other observations

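Some called genes lie near each other in the RefSeq gene order, and each such pair within 5 genes moved the same way. How many such pairs any equal number of genes would hold was not computed. The higher pairs were LOC117857234 and LOC117857235, the RNA-dependent RNA polymerase 3 genes, LOC117866978 and LOC117834648, of the disease resistance family, and LOC117839043 with LOC117836244, both uncharacterized. The lower pairs were the trehalose-phosphate synthase 1-like LOC117848559 with the HEADING DATE 3A-like LOC117850113, and the SRG1-like LOC117864467 with the sulfotransferase LOC117863052. Genes of these pairs that lie outside the naming rule were chosen after their values were seen. Around NdhO itself, 0 of 6 tested genes within 5 genes were called, and the nearest called gene lay 367 genes away. At 0.384% of all genes tested called, that count says nothing particular of the genes around NdhO.

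All 10 called genes without an entry in the RefSeq table were higher in the NdhO-low libraries. Such genes made up 14.5% of the calls and 2.39% of the genes tested. These values are a description, and no test was made on them.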
